A study of Mus musculus with 4 samples.

Results

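The CD1 family has 5 human genes, CD1A (ENSG00000158477), CD1B (ENSG00000158485), CD1C (ENSG00000158481), CD1D (ENSG00000158473) and CD1E (ENSG00000158488). They were taken by symbol from the gene list shared by both deposited count tables, and are 5 of its 36601 genes. The tables hold unique molecular identifier (UMI) counts, in which each UMI stands for 1 captured RNA molecule, from droplet 3' single-cell RNA-seq of live human CD45+ cells sorted from tumors. The tumors were grown from MDA-MB-231, an established human breast carcinoma line, in the mammary fat pad of MISTRG mice, which lack their own lymphocytes, carry human cytokine genes in place of mouse ones and had been engrafted with human CD34+ fetal liver cells. The mice were untreated (7) or received maraviroc, an oral small-molecule drug, with their drinking water (300 mg/l) over 10 days that began on day 21 (7), and all tumors were taken on day 31. Each mouse's cells were tagged with a hashtag antibody and pooled into 2 reactions, with 4 untreated and 3 treated mice in reaction 1 and 3 untreated and 4 treated mice in reaction 2.

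CD1 molecules pair with beta-2-microglobulin, as MHC class I does, but hold lipids rather than peptides in a hydrophobic groove. CD1A, CD1B and CD1C, called group 1, display self and mycobacterial lipids to T cells and are textbook markers of dendritic cells. CD1D presents glycolipids to natural killer T cells, and CD1E stays inside the cell, where it helps to load lipids on the other members. Mice keep only the CD1D branch of the family. CD1C is the usual surface marker of human type 2 dendritic cells, CD1A marks Langerhans cells and many dendritic cells grown from monocytes, and CD1C and CD1D are also known on some B cells.

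Barcodes in which more than 600 and up to 6000 genes were detected, with a mitochondrial share below the study's own limit, were used, 27645 in reaction 1 (median 2752 UMIs) and 10161 in reaction 2 (median 10742 UMIs). Of these, 11917 and 7900 carried the hashtag of 1 mouse, and the UMIs of a mouse summed to between 5996882 and 14782548. The depth of the reactions differed so much that shares of cells with a UMI were also computed after thinning each cell to 3000 UMIs. Cells were sorted into 13 gates by UMIs of marker genes, none of them a CD1 gene. Cells were set aside (15.4% and 10.1%) where a lymphocyte, mast, carcinoma, type 1, mature or plasmacytoid dendritic cell gate was met with any other. A further 22.5% and 6.74% met no gate. Overlaps of the monocyte, C1Q and type 2 rules were kept. Cells that met the monocyte and C1Q rules formed their own gate, and the type 2 gate kept cells that also met the monocyte rule. Among its cells of at least 3000 UMIs these were 74 of 127 in reaction 1 and 210 of 292 in reaction 2. Monocytes had S100A12, FCN1 and VCAN, and C1Q macrophages had C1QA, C1QB and C1QC. Type 1 dendritic cells had CLEC9A, XCR1 and CLNK, and mature dendritic cells had LAMP3 with CCR7. The type 2 gate asked for at least 2 UMIs of FCER1A and CLEC10A summed, in cells without high C1Q. Cells with the same sum and high C1Q formed a separate gate, the CLEC10A C1Q cells. CLEC10A alone could meet this sum, and FCER1A was rare. It had 84 and 32 UMIs in cells of at least 10 HLA-DRA UMIs, without those chosen below by CD1A or S100B. These chosen cells had at most 32 per group and reaction, but they were few. For example, 34 and 23 cells were chosen by CD1A, against 9248 and 5683 others, and levels are given below. Both markers together had 535 and 1250 UMIs in the type 2 gate.

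Further marker genes that no gate used were highest in their own gate for all 10 gene and reaction pairs of B cells, all 12 of mature dendritic cells, all 6 of NK cells and 8 of 10 of type 1 dendritic cells. The same held for 6 of 8 in monocytes, 6 of 8 in C1Q macrophages and 4 of 6 in T cells. CD14, a marker listed for monocytes, was at 585 and 468 CPM there, against 1545 and 1578 CPM in C1Q macrophages. In the type 2 gate only 2 of 10 pairs were highest. Its cells carried monocyte genes at 2009 and 2822 CPM in reactions 1 and 2 (CPM are UMIs scaled to a fixed total over all genes in the same cells), against 4574 and 5528 CPM in monocytes, so the gate is called here by its rule and not as a pure type 2 dendritic cell population. HLA-DQA1 (log2 fold change 3.57), PKIB (2.27) and FCGR2B (0.70) were nevertheless higher in it than in monocytes by edgeR's test over all genes. HLA-DQA1 was at 433 and 490 CPM in the gate, but at 1928 and 2259 CPM in type 1 dendritic cells. CLIC2, another of its markers, was at 12.3 and 13.2 CPM, against 197.5 and 370.5 CPM in mature dendritic cells. ENHO was highest in the type 2 gate in reaction 1 only. Tests use sums per mouse, and a mouse entered where it had at least 10 cells in both gates (3 where stated). p-values therefore measure the spread between mice. Fits that also kept genes with few counts gave a smaller standard error for CD1C, for example 0.17 against 0.38 for treatment in monocytes. Such fits may understate this spread.

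CD1C had the most UMIs of the family. It gave 3103 UMIs in 1657 cells of reaction 1 (26.3 CPM over all cells) and 3053 in 881 cells of reaction 2 (25.3 CPM). CD1D followed with 798 and 920 UMIs, CD1A with 549 and 348, CD1B with 277 and 295 and CD1E with 250 and 330. These are 3' counts without a correction for how well each transcript is captured, so levels are compared across cells within a gene. The plot of pooled levels by gate shows that the 5 genes did not share 1 pattern. Among monocytes, macrophages and dendritic cells, CD1C stood out in the type 2 gate and in CLEC10A C1Q cells, and CD1D in the type 2 gate and monocytes. CD1A and CD1B stood out in CLEC10A C1Q cells, and CD1E in mature dendritic cells of reaction 2.

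**Figure D1:**
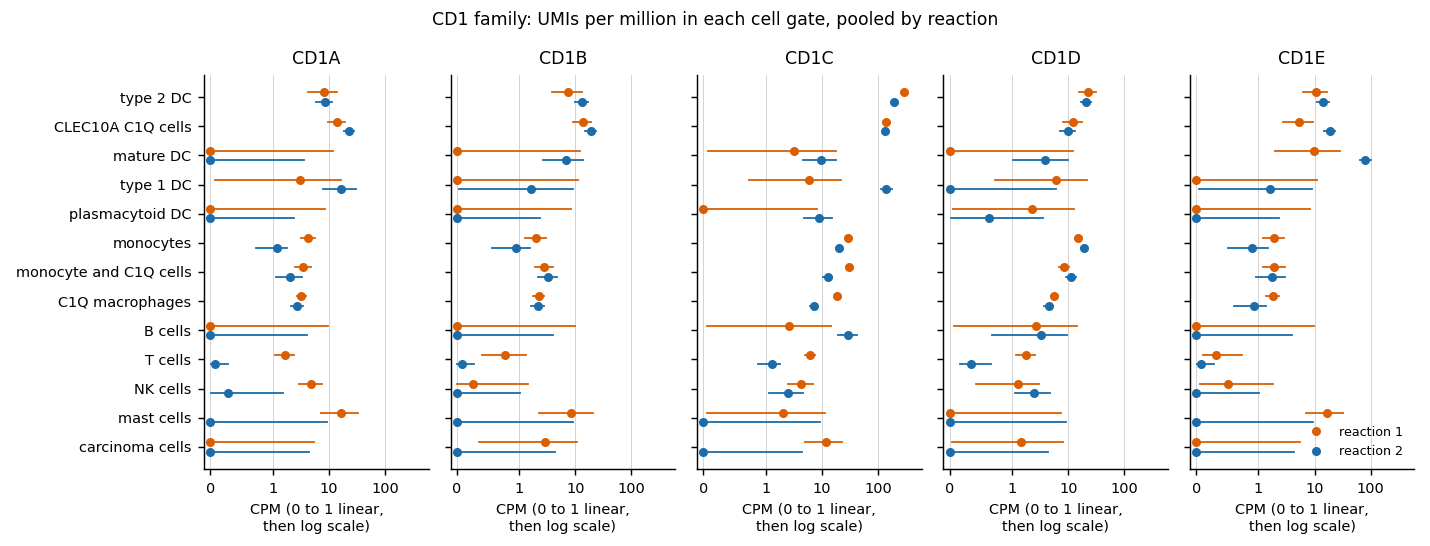
Pooled CPM of each CD1 gene (x axis, linear from 0 to 1 and logarithmic above) in the 13 gates (y axis, "type 2 DC" is the type 2 gate), with exact 95% Poisson intervals as bars and reactions 1 and 2 in different colors. CD1C reached 293 and 191 CPM in the type 2 gate against 4.34 and 2.48 CPM in NK cells, while CD1E peaked at 80.6 CPM in mature dendritic cells of reaction 2.

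CD1C in the type 2 gate was at 293 CPM in reaction 1 (475 UMIs in 148 cells, exact 95% Poisson interval 267 to 321) and 191 CPM in reaction 2 (914 UMIs in 293 cells, 179 to 204). These intervals, like all others given here, cover counting error only. Among the 12 mice with at least 10 cells in the gate, the lowest mouse was at 114 CPM, the median at 230.4 and the highest at 423 CPM. Monocytes of all 14 mice ran from 7.94 CPM over a median of 15.2 to 64.7 CPM, so that no monocyte value reached the lowest value of the type 2 gate. CD1C was higher in the type 2 gate in 12 of 12 mice, with a log2 fold change of 3.26 (SE 0.21, edgeR adjusted p = 1.96e-10). The exact sign-flip test over mice gave its smallest possible p of 0.000488. Of the 7484 genes tested, 15.4% were called higher in the type 2 gate. CD1C and CD1D were the members with enough counts for this test, and CD1C was the 1 called. Without the filter on low counts 4 of 5 members were called higher, beside 2.78% of the 24484 genes then tested.

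The type 2 gate was also divided by its monocyte genes. Cells of the gate without them held CD1C at 374 and 261 CPM in the 2 reactions, and cells with them at 239 and 167 CPM. In the 5 mice with at least 10 cells without monocyte genes, CD1C was higher than in monocytes of the same mouse in 5 of 5 (log2 fold change 3.66, edgeR adjusted p = 4.01e-07). No share of all genes is given for this fit, so only the effect size and the mice are read.

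CLEC10A C1Q cells held CD1C at 142 CPM (127 to 159) in reaction 1 and 132.5 CPM (122 to 144) in reaction 2. By the gate's rule these cells carried C1Q genes, at 3881 and 3729 CPM, together with FCER1A and CLEC10A, at 331 and 262 CPM. The rule set no limit on their monocyte genes, which were at 1145 and 1235 CPM. C1Q macrophages excluded cells high in monocyte genes by rule and had them at 283 and 165 CPM. Each comparison of these 2 gates, here and below, thus also differs in monocyte genes, and the part of this was not tested. Per mouse, CD1C of CLEC10A C1Q cells ran from 18.5 over a median of 143 to 301 CPM (14 mice, 10 to 50 cells each), against 1.36 to 32.8 CPM with a median of 8.99 in C1Q macrophages. The ranges of the groups overlapped between 18.5 and 32.8 CPM, but within each mouse the CLEC10A C1Q cells were higher in 14 of 14. The log2 fold change was 3.84 (SE 0.28, edgeR adjusted p = 8.90e-10), where 19.9% of 8188 genes were called higher. Without the low-count filter, where 26379 genes were tested and 4.06% called higher, all 5 members were called higher. CD1D was among these, although its exact sign-flip p was 0.0942. Against the type 2 gate, CLEC10A C1Q cells had less CD1C in 9 of 12 mice (mean difference in log2(CPM + 1) 0.53, exact sign-flip p = 0.0322).

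Monocytes and C1Q macrophages carried CD1C at lower levels. Pooled values were 29.6 and 20.3 CPM in monocytes and 18.3 and 7.23 CPM in C1Q macrophages. NK cells, which should lack the gene, had 4.34 and 2.48 CPM, and T cells 6.12 and 1.27 CPM. C1Q macrophages were lower than monocytes in 12 of 14 mice, with a log2 fold change of -1.16 (SE 0.28, edgeR adjusted p = 0.00108), and 32.3% of 10664 genes were called lower in that comparison. In reaction 1 alone the value was -0.62 (SE 0.29, adjusted p = 0.0848), and in reaction 2 alone -1.72 (SE 0.35, adjusted p = 0.000584). The difference between the reactions was not past the threshold (interaction -1.10, SE 0.52, edgeR adjusted p = 0.316). Without the low-count filter it was past the threshold (-1.09, SE 0.25, edgeR adjusted p = 0.00114), so this rests on the filter.

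Within monocytes, CD1C went with the absence of S100A12, a gene of classical monocytes. Monocytes without an S100A12 UMI had 34.7 and 29.9 CPM and those with one 21.6 and 13.1 CPM. The former were higher in 11 of 14 mice (log2 fold change 1.07, SE 0.22, edgeR adjusted p = 0.00137), beside 6.42% of all genes called higher. In reaction 2 this held in 7 of 7 mice (log2 fold change 1.16, SE 0.21, edgeR adjusted p = 0.00205), while in reaction 1 it held in 4 of 7 and CD1C had too few counts to be tested, so the call rests on reaction 2. Depth moved with this division. The median cell had 2426 and 10898 UMIs without S100A12 and 3267 and 12172 with it, and the part of depth in the difference was not tested.

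**Figure D2:**
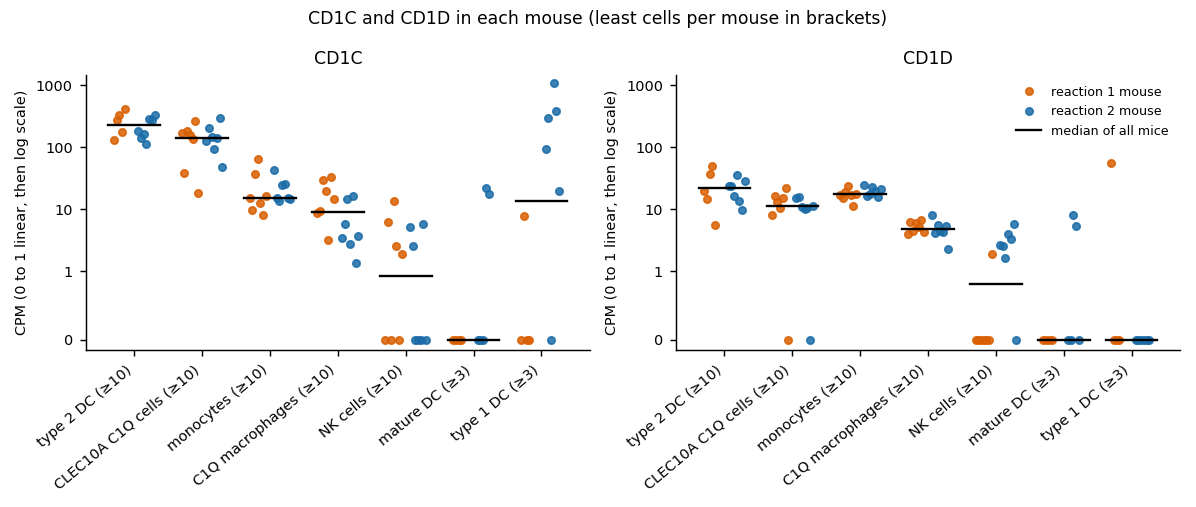
CD1C and CD1D per mouse (y axis, CPM, linear from 0 to 1 and logarithmic above) in 7 gates, where each point is a mouse with at least 10 cells of the gate (3 where the axis label says so), colored by reaction, and lines mark medians. CD1C of the type 2 gate lies above every monocyte value, whereas CD1D of monocytes lies between 11.1 and 24.4 CPM, above every C1Q macrophage value.

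Type 1 dendritic cells did not give 1 level of CD1C. In reaction 1 they had 2 UMIs in 36 cells, and in reaction 2 88 UMIs in 9 of 36 cells, or 142 CPM (114 to 175). A single cell gave 27 of these 88 UMIs. Per mouse, with 3 to 7 cells each, values ran from 0 over a median of 13.7 to 1079 CPM, and 4 of 10 mice were at 0. The mouse at 1079 CPM had 3 cells in the gate. FCER1A and CLEC10A, the markers of the type 2 gate, summed to 5.996 and 1.62 CPM in these cells, with 1 UMI in the mouse at 1079 CPM. Cells with at least 2 UMIs of these markers met a second gate and were set aside, so these sums are low by rule. Against the type 2 gate of the same mice the log2 fold change of CD1C was 1.09 in favor of the type 2 gate (SE 0.69, edgeR adjusted p = 0.218, 10 mice with at least 3 cells), beside 25.9% of 2331 genes called higher there. It was 5.69 (SE 0.81) in the 4 mice of reaction 1 and 0.015 (SE 0.59) in the 6 mice of reaction 2. Against monocytes, CD1C was called higher in type 1 dendritic cells of reaction 2 alone (3.06, SE 0.45, edgeR adjusted p = 2.17e-08, 5 of 6 mice), while over both reactions it had too few counts to be tested. No share of all genes is given for this call, so it is not read as a result. The level in type 1 dendritic cells thus rests on few cells and on the reaction.

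Mature dendritic cells, which have taken up the migratory program marked by CCR7, had almost no CD1C. They held 1 UMI in 33 cells of reaction 1 and 10 UMIs in 69 cells of reaction 2 (9.60 CPM, 4.602 to 17.7). Of the 9 mice with at least 3 cells, 7 were at 0 and the highest was at 21.8 CPM, below every value of the type 2 gate. CD1C was lower than in the type 2 gate in 9 of 9 mice (log2 fold change -4.82, SE 0.41, edgeR adjusted p = 6.81e-09), where 30.9% of 2795 genes were called lower. At 10 cells per mouse 2 mice were left, and CD1C was called lower there too (-4.15, SE 0.61, adjusted p = 4.23e-05), beside 16.3% of 5929 genes. Plasmacytoid dendritic cells had no CD1C UMI in 52 cells of reaction 1, which allows up to 6.78 CPM at 3 counts, and 14 UMIs in reaction 2, all of them in 1 cell of 118.

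B cells with CD1C were found mainly in reaction 2. There, 17 of 124 B cells had a CD1C UMI (13.7%, exact binomial interval 8.19% to 21.04%; 27 UMIs, 29.3 CPM), whereas 1.31% of NK cells and 0.694% of T cells had one. In reaction 1 it was 1 of 91 B cells (1.10%), below the 1.77% of NK cells, with a median of 3167 UMIs in B cells of reaction 1 and 6440 in reaction 2. After thinning, the shares were 0 and 8.62% in B cells and 1.23% and 0.815% in NK cells. Over the 9 mice with at least 10 B cells, CD1C was higher in B than in NK cells in 6 and lower in 2 (26 against 10 UMIs), which did not pass the exact sign-flip test (p = 0.0938). None of the 5 genes had enough counts for edgeR in that comparison, and without the low-count filter the difference of CD1C between the reactions was not past the threshold (interaction 4.13, SE 1.81, edgeR adjusted p = 0.926). FCER1A and CLEC10A summed to 1.09 CPM in the B cells of reaction 2, a sum that is low by rule, since B cells with at least 2 of these UMIs were set aside.

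CD1D, the member that natural killer T cells read, was spread over monocytes and the type 2 gate rather than over dendritic cells in general. Monocytes had 15.1 CPM (13.0 to 17.5) and 19.1 CPM (17.1 to 21.2), and the type 2 gate 22.2 (15.6 to 30.8) and 20.9 CPM (17.02 to 25.4). The 14 mice lay within a narrow range of 11.1 to 24.4 CPM in monocytes, with a median of 17.4. The type 2 gate ran from 5.65 over 21.9 to 49.8 CPM, around the monocyte values. Of 12 mice, 6 were higher in each gate (log2 fold change 0.20, SE 0.18, edgeR adjusted p = 0.439).

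C1Q macrophages had less CD1D than monocytes. They ran from 2.32 over 4.87 to 7.93 CPM per mouse, so that the groups did not overlap, and the log2 fold change was -2.01 (SE 0.14, edgeR adjusted p = 2.20e-11, lower in 14 of 14 mice), beside the same 32.3% of genes called lower. Each reaction alone gave -1.82 and -2.15. CD1D and CD1C were both called lower in C1Q macrophages, while CD1A, CD1B and CD1E gave exact sign-flip p-values of 0.257, 0.115 and 0.850. Cells that met both the monocyte and the C1Q markers had intermediate pooled CD1D levels of 8.36 and 11.4 CPM. CLEC10A C1Q cells had less CD1D than monocytes in 12 of 14 mice (mean difference in log2(CPM + 1) -1.01, exact sign-flip p = 0.00574) and less than the type 2 gate in 11 of 12 (exact p = 0.0225), the reverse of their high CD1A.

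In type 1 dendritic cells, CD1D was detected with 2 UMIs in reaction 1 and none in reaction 2, which allows up to 4.85 CPM at 3 counts. It was below the monocyte level in 9 of 10 mice (exact sign-flip p = 0.00391). Mature dendritic cells had 0 and 4 UMIs and were below the type 2 gate in 9 of 9 mice (exact p = 0.00391, the smallest possible). Each mouse had only 3 to 7 and 3 to 17 cells of these gates, so their sums per mouse are shallow and values of 0 weigh heavily in both tests. B cells had 2.63 and 3.26 CPM of CD1D, close to the 1.28 and 2.48 CPM of NK cells, and the exact test gave p = 0.781.

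**Figure D3:**
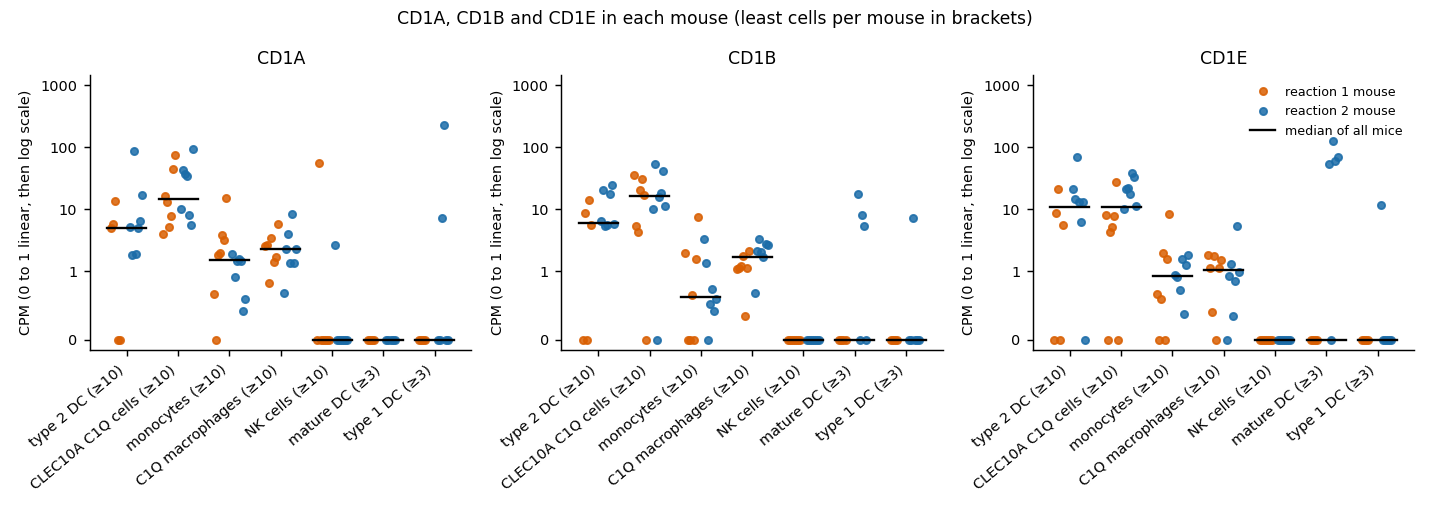
CD1A, CD1B and CD1E per mouse (y axis, CPM, linear from 0 to 1 and logarithmic above), with points for mice colored by reaction and lines at the medians. CLEC10A C1Q cells have medians of 14.6 CPM for CD1A and 16.4 CPM for CD1B above those of monocytes and C1Q macrophages, and CD1E of mature dendritic cells is above 0 in 4 mice, all of reaction 2.

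CD1A was rare. It was found in 1.42% of all cells in reaction 1 and 1.82% in reaction 2. Among monocytes, macrophages and dendritic cells, CLEC10A C1Q cells had the highest pooled level, with 13.9 CPM (31 UMIs, 9.44 to 19.7) and 23.2 CPM (101 UMIs, 18.9 to 28.2). Per mouse they ran from 4.03 over 14.6 to 94.3 CPM and no mouse was at 0. C1Q macrophages ran from 0.690 over 2.31 to 8.51 CPM and monocytes from 0 over 1.53 to 15 CPM, so the lowest CLEC10A C1Q value lay within the range of both. Within mice, CD1A was higher in CLEC10A C1Q cells than in C1Q macrophages in 13 of 14 mice (mean difference in log2(CPM + 1) 2.51, exact sign-flip p = 0.000244) and higher than in monocytes in 14 of 14 (exact p = 0.000122, the smallest possible).

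The type 2 gate had 8.02 and 8.37 CPM of CD1A, less than CLEC10A C1Q cells in 8 of 12 mice (exact sign-flip p = 0.0366). Against monocytes it was higher in 10 of 12 mice, with an exact p of 0.0605. Mature dendritic cells, plasmacytoid dendritic cells and B cells had no CD1A UMI in any mouse that entered with at least 3 cells, and the 1041969 UMIs of mature dendritic cells in reaction 2 allow up to 2.88 CPM at 3 counts. Type 1 dendritic cells had 1 and 10 UMIs, the latter in 3 cells. NK cells of reaction 1 were at 4.85 CPM, but 18 of their 19 CD1A UMIs sat in 1 cell, and mast cells were at 16.4 and 0 CPM.

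Cells with at least 3 CD1A UMIs, chosen here by this value and so only described, numbered 34 in reaction 1 and 23 in reaction 2, and held 28.8% and 47.1% of the CD1A UMIs. They carried CD1C at 154 and 383 CPM and CD1E at 75.2 and 104 CPM. The comparison was with other cells of at least 10 HLA-DRA UMIs. From these, cells with at least 10 S100B UMIs and no CD3D, CD3G, CLEC9A or XCR1 had been left out. The S100B contrast is therefore partly set by this rule, which may also affect genes that go with S100B. In the cells chosen by CD1A, S100B, a calcium-binding protein gene, was at 1635 and 2529 CPM, against 80.2 and 66.4 CPM in the others. LTB was at 1094 and 1394 against 195 and 208 CPM. CD207, which encodes the Langerhans cell lectin langerin, was at 60.1 and 30.4 CPM against 2.88 and 0.215. A CD207 UMI was in 20.6% and 13.0% of the cells chosen by CD1A. Genes listed for the type 2 gate were higher too. FCER1A was at 60.1 and 81.1 against 1.28 and 0.381 CPM. PKIB was at 391 and 459 against 36.4 and 28.5 CPM, and HLA-DQA1 at 808 and 1528 against 189.5 and 194 CPM. IL1R2 was lower in reaction 1 and higher in reaction 2, at 7.52 and 65.9 against 33.3 and 37.4 CPM. The macrophage gene C1QA was at 462 and 710 against 1304 and 1028 CPM and the monocyte gene VCAN at 474 and 71.0 against 992 and 1549 CPM. A UMI of the T cell gene CD3D was in 20.6% of the cells chosen by CD1A in reaction 1 and none in reaction 2, against 26.3% and 14.2% of the others. In reaction 1, 13 of these cells met no gate and 8 had been set aside for the gates they met, and in reaction 2, 9 were CLEC10A C1Q cells and 6 met no gate. Hashtag singlets made up 16 of the 34, from 6 mice, and 22 of the 23, from 5 mice.

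CD1B, which samples lipids in late endosomes, had, like CD1A, its highest pooled level in CLEC10A C1Q cells among monocytes, macrophages and dendritic cells. CLEC10A C1Q cells had 13.4 and 18.8 CPM, the type 2 gate 7.41 and 13.0 CPM, monocytes 2.01 and 0.955 CPM and C1Q macrophages 2.24 and 2.16 CPM. Per mouse the CLEC10A C1Q cells ran from 0 over 16.4 to 53.3 CPM and C1Q macrophages from 0.347 over 1.72 to 3.28 CPM, with the former higher in 12 of 14 mice (exact sign-flip p = 0.00269). The type 2 gate ran from 0 over 6.02 to 24.6 CPM and was above monocytes, with a median of 0.626 CPM, in 10 of 12 mice (mean difference in log2(CPM + 1) 2.05, exact p = 0.00537). It was below CLEC10A C1Q cells in 10 of 12 mice, which did not pass the exact sign-flip test (p = 0.0889). After thinning, 2.36% and 4.795% of the type 2 gate had a CD1B UMI, against 4.52% and 4.47% of CLEC10A C1Q cells. CD1B was in no B cell and no plasmacytoid dendritic cell, and NK cells held 0.256 and 0 CPM. After thinning, mast cells of reaction 1 had CD1B at 33.3 CPM (3 of 40 cells), above the 18.4 CPM of CLEC10A C1Q cells. In reaction 2 the value was 0 in 51 mast cells.

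CD1E, the intracellular helper, had its highest level in mature dendritic cells of reaction 2. There it gave 84 UMIs in 16 of 69 cells, or 80.6 CPM (64.3 to 99.8), of which 1 cell gave 24 UMIs. These few cells held 25.5% of all CD1E UMIs of that reaction. In reaction 1 the same gate had 3 UMIs in 33 cells, 9.71 CPM (2.003 to 28.4). The mice of reaction 2 with at least 3 such cells were at 0, 53.8, 59.9, 71.0 and 126 CPM, and the 4 mice of reaction 1 were all at 0. Over these 9 mice, CD1E was higher than in the type 2 gate in 4 and lower in 3 (exact sign-flip p = 0.891). In the 2 mice with at least 10 mature cells, both of reaction 2, it was called higher, with a log2 fold change of 3.47 (SE 0.55, edgeR adjusted p = 8.79e-05), beside 17.4% of genes called higher. CD1E was thus high where CD1C and CD1A were at or near 0, and this rests on mice of 1 reaction.

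CD1E in the type 2 gate was at 10.5 and 14.0 CPM and in CLEC10A C1Q cells at 5.38 and 18.6 CPM. Monocytes had 1.92 and 0.898 CPM and C1Q macrophages 1.79 and 0.935 CPM. After thinning, mast cells of reaction 1 had CD1E at 41.7 CPM (4 of 40 cells), and those of reaction 2 were at 0 in 51 cells. The type 2 gate was higher than monocytes in 9 of 12 mice (exact sign-flip p = 0.00586), from 0 over 10.9 to 70.5 CPM against 0 over 0.927 to 8.33 CPM. CLEC10A C1Q cells were higher than C1Q macrophages in 12 of 14 (exact p = 0.00110). In the type 2 gate of reaction 2, cells without monocyte genes had 30.8 CPM of CD1E and cells with them 8.17 CPM, while in reaction 1 these values were 12.4 and 9.25 CPM. In all, 48 exact tests over 10 pairs of gates were made on the 5 genes and 29 had an unadjusted p under 0.05.

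CD1C was found in a larger share of the type 2 gate and of CLEC10A C1Q cells than of any other gate. In the type 2 gate 52.7% of cells (44.3% to 61.0%) in reaction 1 and 58.4% (52.5% to 64.1%) in reaction 2 had a CD1C UMI, and after thinning 33.9% and 31.2%. CLEC10A C1Q cells had 44.7% and 43.1%, and thinned 29.2% and 24.8%. Monocytes had 7.54% and 12.6%, and thinned 7.46% and 4.39%, against thinned shares of 1.23% and 0.815% in NK cells and 1.73% and 0.344% in T cells. C1Q macrophages were at 4.48% and 1.43% after thinning, in both reactions between monocytes and NK cells. For CD1D the unthinned share of monocytes was 5.83% in reaction 1 and 18.8% in reaction 2, but the thinned shares were 4.44% and 5.65%, close to each other at equal depth. CD1D in C1Q macrophages was at 1.77% and 0.988% after thinning, against 0.490% and 0.272% in NK cells. CD1E in mature dendritic cells of reaction 2 was found in 23.2% of cells, and in 13.2% after thinning.

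**Figure D4:**
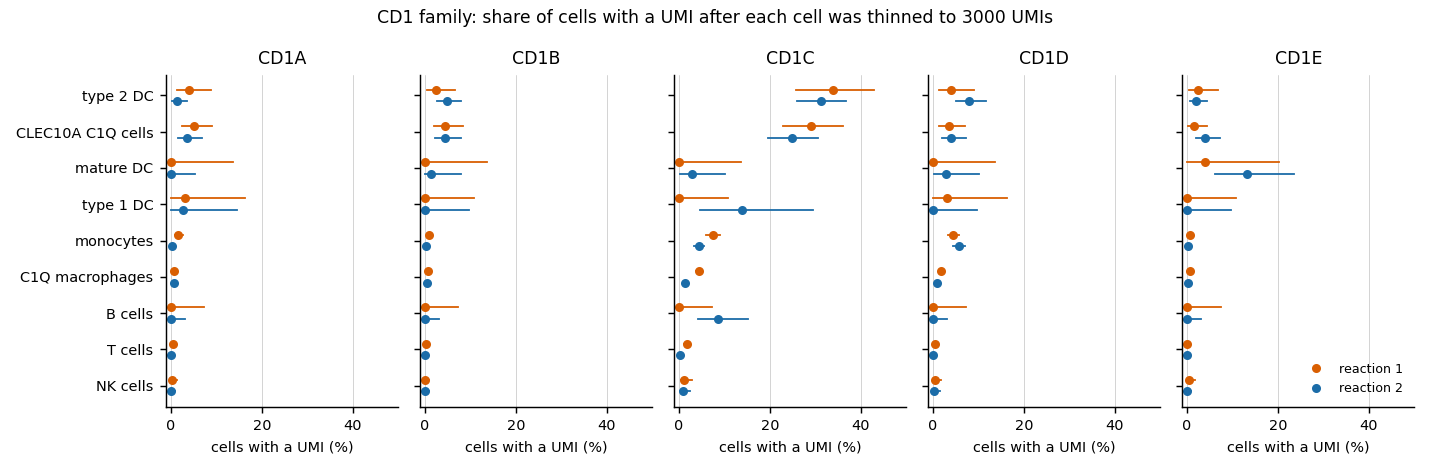
Share of cells with a UMI of each CD1 gene (x axis, percent) in each gate (y axis) after thinning every cell to 3000 UMIs and leaving out shallower cells, with exact 95% binomial intervals and the reactions in different colors. For CD1C the type 2 gate (33.9% and 31.2%) and CLEC10A C1Q cells (29.2% and 24.8%) have the highest shares in both reactions, and the interval of type 1 dendritic cells in reaction 2 reaches into theirs.

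Within the type 2 gate, cells with and without a CD1C UMI were compared for the other members. At equal depth the share of cells with CD1A was 1.67 percentage points higher in CD1C-positive cells, that with CD1B 2.09 higher, that with CD1E 1.17 higher and that with CD1D 2.85 points lower (-2.85). With 4 mice these differences had exact sign-flip p-values of 1, 0.75, 1 and 0.5, and the smallest p the design allows is 0.125. Without thinning, in 5 mice, the differences were 7.69 points for CD1A, 16 for CD1B and 13.8 for CD1E, each higher in 4 of 5 mice with an exact p of 0.125, and 3.64 for CD1D (3 of 5 mice). Co-detection thus differed between thinned and full cells and passed no test.

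C1Q macrophages were divided into 6 states by UMIs of SLC2A1 (GLUT1), MT1G, CXCL10, IL1A with CCL20, LYVE1 and the cycle genes MKI67 with TOP2A. CD1C stayed low in all of them. Cycling macrophages had 21.1 and 13.2 CPM against 18.4 and 7.55 CPM in macrophages of no state. They were higher in 9 of 13 mice and lower in 4 (log2 fold change 0.52, SE 0.24, edgeR adjusted p = 0.11), beside 15.6% of all genes called higher, and this was the 1 state in which a member could be tested. Neither edgeR nor DESeq2 called CD1C there, and its unadjusted p was under 0.05 in edgeR. The GLUT1 state had 12.1 and 1.78 CPM, the CXCL10 state 17.6 and 2.54 CPM and the LYVE1 state 1.51 and 2.37 CPM. MT1G macrophages of reaction 1 had 36.6 CPM, of which 1 cell gave 20 of 35 UMIs, and those of reaction 2 had 2.33 CPM. The interleukin state had 18.8 CPM in reaction 1 and no UMI in reaction 2.

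The machinery that supplies CD1 with lipids was read from a list of 20 genes for saposins, lipid carriers, lysosomal enzymes, chaperones and adaptors. In the type 2 gate against monocytes, 6 of 18 tested genes were higher and 4 lower, with a median log2 fold change of 0.093 against -0.0013 over all genes, of which 15.4% were higher and 14.4% lower. CD74, the invariant chain that steers traffic to endosomes, was higher (1.21), as were the lysosomal galactosidase gene GLA (0.49) and the chaperone gene CALR (0.41). The protease gene CTSL (-1.24) and the lysosomal membrane gene LAMP1 (-0.44) were lower. C1Q macrophages, which had less CD1C and CD1D than monocytes, had 14 of 19 genes of this list higher and 4 lower, with 33.1% of all genes higher and 32.3% lower. APOE, which carries lipids to CD1-bearing cells, was higher by 3.39, GLA by 1.004 and CD74 by 0.97, while the protease gene CTSS was lower (-0.30).

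In mature dendritic cells against the type 2 gate at 3 cells per mouse, 2 of 14 tested genes of that list were higher and 9 lower, with 26.2% of all genes higher and 30.9% lower. B2M, the partner chain of all CD1 molecules, was higher (1.10, SE 0.14) and CD74 too (0.38). CTSS (-2.11) and PSAP (-2.10), whose saposins move lipids onto CD1, were lower. In CLEC10A C1Q cells against C1Q macrophages, CD74 (0.54) was higher and APOE (-2.81) and the activator protein gene GM2A (-0.65) were lower.

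Genes known from CD1A-positive, Langerhans and monocyte-derived dendritic cells formed a second list of 14. In the type 2 gate against monocytes, 4 of 7 tested genes were higher and 2 lower, with a median log2 fold change of 0.41, beside 15.4% and 14.4% of all genes. S100B (2.81), the decoy receptor gene IL1R2 (1.51) and the transcription factor gene IRF4 (1.39) were higher, and PPARG (-1.44), a lipid-sensing nuclear receptor known to affect CD1 genes in cultured dendritic cells, and RUNX3 (-0.50) were lower. In CLEC10A C1Q cells against C1Q macrophages, 3 of 9 were higher and 2 lower, beside 19.9% and 18% of all genes. IRF4 (1.94), S100B (1.74) and IL1R2 (1.46) were higher there again, and FCGBP (-2.09) and the lectin gene CD209 (-1.43) were lower. Of 8 regulators, all tested, 3 were higher and 5 lower in C1Q macrophages than in monocytes, beside 33.1% and 32.3% of all genes. PPARG (-4.04, SE 0.15), the retinoic acid receptor gene RARA (-1.34) and IRF4 (-1.14) were lower, and TCF4 (1.15), ID2 (0.50) and IRF8 (0.40) were higher.

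The genes most like each member across the mean levels of the 13 gates, as Pearson's r over 12956 genes and without a test, differed between members. The closest to CD1D were CLEC4D (0.958), CD101 (0.947) and ASGR1 (0.944). The closest to CD1C were PFDN5 (0.890), ACPP (0.872) and HLA-DMA (0.871), those to CD1B AL138899.1 (0.913), RTN1 (0.839) and ENHO (0.819), those to CD1A LAMTOR4 (0.918) and NDRG2 (0.900), and those to CD1E THAP2 (0.863) and RNF145 (0.861). With 13 points that share libraries, these values are a description.

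Maraviroc was compared with no treatment within gates, with the reaction as a covariate. In the type 2 gate CD1C was at 133, 174 and 329.6 CPM in the lowest, median and highest untreated mouse and at 114, 284 and 423 CPM in the treated mice, so the groups overlapped over nearly their whole range. The log2 fold change was 0.47 (SE 0.28, edgeR adjusted p = 0.9995). Monocytes ran from 9.70 over 15.3 to 64.7 CPM untreated and from 7.94 over 14.99 to 25.6 CPM treated (log2 fold change -0.67, SE 0.38). Reaction 1 alone gave -1.39 (SE 0.55, edgeR adjusted p = 0.746) and reaction 2 alone -0.24 (SE 0.37), both with the low-count filter. Without that filter the difference between the reactions was 1.17 (SE 0.36, edgeR adjusted p = 0.111). The value over both reactions was then -0.67 (SE 0.17, edgeR adjusted p = 0.0548). C1Q macrophages ran from 3.45 over 9.30 to 30.0 CPM and from 1.36 over 3.64 to 32.8 CPM (-0.20, SE 0.49). CLEC10A C1Q cells ran from 37.9 over 159 to 204 CPM untreated and from 18.5 over 138 to 301 CPM treated. CD1D of monocytes was at 15.2 to 24.4 CPM untreated and 11.1 to 23.0 CPM treated, with medians of 17.4 and 17.5 CPM (log2 fold change -0.09, SE 0.17), and CD1D of C1Q macrophages differed by -0.28 (SE 0.23).

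None of the members tested was called in any of these gates by edgeR or by DESeq2, none had an unadjusted edgeR p under 0.05 with both reactions and the filter (CD1C of monocytes had 0.0244 in reaction 1 alone and 7.40e-05 without the filter), and 0% of all genes were called in the type 2 gate, monocytes or C1Q macrophages (187 of 5310, 386 of 9475 and 393 of 11262 genes had an unadjusted p under 0.05). The members tested with the filter and both reactions were CD1C in the type 2 gate, and CD1C and CD1D in monocytes and in C1Q macrophages. Without the filter, further members had an unadjusted edgeR p under 0.05, and none was called. In the type 2 gate these were CD1A (log2 fold change -1.87), CD1E (-1.60) and CD1C (0.45). In monocytes these were CD1A (1.33) and CD1E (1.24). The 20 exact permutation tests of the 5 genes over 4 gates gave no p under 0.05, and the lowest was 0.106, for CD1E in the type 2 gate. The standard errors of CD1C were 0.28 in the type 2 gate, 0.38 in monocytes and 0.49 in C1Q macrophages, and a p that misses the threshold does not show that the groups were alike.

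**Figure D5:**
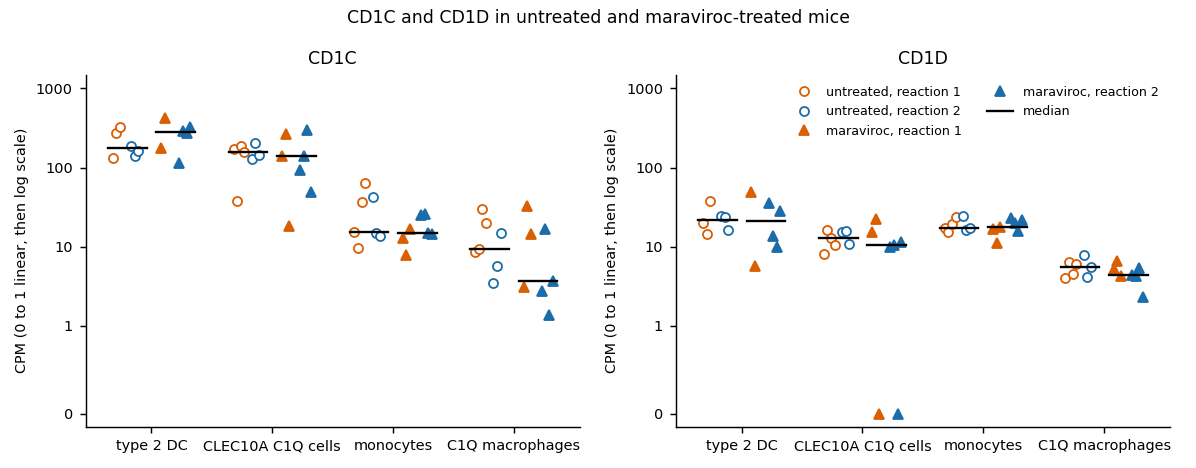
CD1C and CD1D (y axis, CPM, linear from 0 to 1 and logarithmic above) in untreated and maraviroc-treated mice for 4 gates, with 1 point per mouse, open circles for untreated and triangles for treated mice, colors for the reaction and lines at the medians. The 2 treatments overlap in every gate, for example at 133 to 329.6 and 114 to 423 CPM for CD1C in the type 2 gate.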

How the data were processed

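For each of the 2 reactions the authors deposited raw UMI counts per gene and hashtag, without normalization, for the barcodes kept by Cell Ranger 9.0.1 on GRCh38 (tools and build from the submitters' processing notes, which also name Seurat 5.1.0). Treatments were read from the hashtag names in the feature lists, since the sample labels do not give them. Of the barcodes, 136 sequences occur in both reactions and were kept apart. Hashtags were called with HTODemux in Seurat 5.3.0 (R 4.3.3, positive quantile 0.99). Doublets were removed only as barcodes with more than 1 hashtag or with a combination of gates that was set aside. Pooled levels use all barcodes within the limits, tests use singlets.

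Members and lists were chosen with earlier results of these data known, and gate thresholds were set after the counts had been seen. Monocytes had at least 4 UMIs of their markers and at least 10 per 10000 UMIs, as had C1Q macrophages. Mature dendritic cells had 1 UMI of each marker. The named genes were the 5 members, for each list the 3 called genes with the largest and the 3 with the smallest log2 fold change (not all are printed), and the genes most like each member.

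Sums per mouse and gate were tested with edgeR 4.0.16 (TMM, filterByExpr, quasi-likelihood, mouse as a block, Benjamini-Hochberg over all genes tested at 0.05). The 3-cell limit, the interactions with reaction and the exact permutation tests on log2(CPM + 1) were chosen after seeing the data. So were the comparisons of CLEC10A C1Q cells, of the type 2 gate without monocyte genes and of monocytes by S100A12. The exact tests (two-sided, unadjusted) were computed in Python 3.11.15 with numpy 2.4.6, and the exact intervals with scipy 1.17.1. Simulated data for the type 2 gate against monocytes (7481 genes) gave 91.7% of 2-fold and 100% of 4-fold changes with 11 false calls, and for treatment in monocytes (9397 genes) 63.8% and 100% with 6. The simulation gave every gene the same spread (dispersion 0.1) and no mouse or reaction effect. Changed genes were drawn from those that passed the low-count filter. It therefore does not measure how well changes of the CD1 genes would be found. Alternatives were DESeq2 1.42.0 (its test and its size factors), no low-count filter, no block, each reaction alone, 1 more UMI for the gates, more than 1000 genes, hashtag quantile 0.999 and thinning. No human reference sequence was used here. Some genes of the lists are not reported here by name.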

Additional observations from a re-analysis of the deposited data

Results flagged for a closer look

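In untreated mice, CD1E of the type 2 gate was at 70.5 CPM in 1 mouse of reaction 2 (13 UMIs in 13 cells), while the nearest of the 6 mice was at 21.6 CPM. The gap was 0.693 of the range, above Dixon's critical value for 6 samples. In maraviroc-treated mice, CD1A of monocytes was at 15 CPM in 1 mouse of reaction 1 (18 UMIs in 288 cells), with the nearest of 7 mice at 3.85 CPM and a gap of 0.764 of the range, above the value for 7 samples. Of 26 such groups examined, with a minimum of 30 UMIs, these 2 stood apart, and chance gives about 1 in 20. CD1A of the type 2 gate in untreated mice, with 29 UMIs, was below that minimum. With the low-count filter, CD1E in the type 2 gate and CD1A in monocytes had too few counts to be tested for treatment. Without it, neither was called.

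Cells that met no gate, which no comparison used, also held CD1 UMIs above the level of NK cells. CD1A was at 9.96 CPM in reaction 1 and 9.12 CPM in reaction 2, against 4.85 and 0.275 CPM in NK cells, and CD1C at 29.0 and 36.1 CPM, against 4.34 and 2.48 CPM. The median cell without a gate had 1551 and 6999 UMIs.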

How the results depend on the processing

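Of 165 alternative values of the comparisons and levels, 145 kept their direction and size, and of 162 for single genes, 154. CD1C in the type 2 gate against monocytes stayed between 3.16 and 3.46 and CD1D in C1Q macrophages against monocytes between -2.15 and -1.82. Without the low-count filter, 4 members were called higher in the type 2 gate against monocytes (from 1, beside 2.78% of genes). In CLEC10A C1Q cells against C1Q macrophages it was 5 (from 1, beside 4.06%). For the following calls no share of all genes is given, so they are not read as results. In type 1 dendritic cells against monocytes (from 0), CD1A and CD1C were called higher and CD1D lower, although CD1A was higher in only 2 of 10 mice. CD1C was called higher in B than in NK cells and lower in the CXCL10 state (both from 0). CD1A, CD1B, CD1C and CD1E were called higher in the type 2 gate without monocyte genes against monocytes (from 1). The type 2 gate against type 1 dendritic cells had 2 calls (from 0). Leaving out the filter also changed the genes called in the type 2 gate against monocytes from 1151 higher and 1081 lower to 680 and 1812, with the median of all genes at -0.23. DESeq2's test called 1 member for the type 2 gate against type 1 dendritic cells (CD1C, 2.55), 1 more UMI for the gates called 1 for type 1 dendritic cells against monocytes and 1 over the states (CD1C in cycling cells, 0.58), and 3 cells per mouse called 1 for mature dendritic cells against the type 2 gate (from 2), where CD1E had too few counts.

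With each reaction left out in turn, the members called were 0 to 1 for the type 2 gate against type 1 dendritic cells, 0 to 2 for type 1 dendritic cells against monocytes (CD1C higher and CD1D lower in reaction 2), 1 to 2 for C1Q macrophages against monocytes (CD1C lost in reaction 1, at -0.62), 0 to 1 for monocytes by S100A12 and 1 to 1, 2 to 2 or 0 to 0 elsewhere. These counts stand without the share of all genes called and show only how calls moved. CD1D, which was not called in any of these, turned to 0.053 in the type 2 gate without monocyte genes (stricter hashtag quantile, from -0.61), to 0.046 in monocytes by S100A12 (reaction 2 alone, from -0.18), to 0.074 for treatment in monocytes (reaction 2 alone, against -0.34 in reaction 1 and -0.09 in both) and to 3.64 points in co-detection without thinning (from -2.85). Co-detection in the 1 reaction left gave 0, 5.35, -3.79 and 1.55 points for CD1A, CD1B, CD1D and CD1E. CD1E in mature dendritic cells of reaction 1, 3 UMIs at 9.71 CPM, was 9.37 CPM in singlets, 9.17 with 1 more UMI, 9.91 with more than 1000 genes and 13.3 after thinning. The cause of these shifts was not tested. The mouse pairs the gates, as both come from the same animal. Without this block the same number of members was called in every comparison (1 in the type 2 gate against monocytes, CD1C 3.25). Gates with 3 to 17 cells per mouse limit all statements on type 1 and mature dendritic cells.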
